A study of Homo sapiens with 12 samples.

Results

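MHC class I antigen presentation genes were followed across the 12 libraries, through the 9 members HLA-B, HLA-C, HLA-E, B2M, TAP1, TAP2, TAPBP, PSMB8 and PSMB9. Each member was every row of the deposited matrix that carries its symbol, with rows of 1 symbol summed, and all 9 were found among 35940 symbols and were among the 17047 genes tested. The 9 genes were chosen by their CPM, the count of a gene scaled to a common library size, in these same libraries, so their levels and fold changes between the groups are given as a description, with no p-value. Every library is from ESI017, an established line of human embryonic stem cells that here bears the SOX2::mCitrine reporter, grown as colonies on micropatterns, which are printed adhesive areas of fixed shape. Colonies spent 3 days in the serum-free medium N2B27. Controls (2 libraries, whose titles name no gate) had no further factor, and treated colonies had 200 ng/ml FGF8 together with 100, 300 or 1000 ng/ml WNT3A. Flow sorting split treated cells by mCitrine into a SOX2-positive and a SOX2-negative gate, with 2 libraries per gate at the lowest and the highest WNT3A dose and 1 per gate at 300 ng/ml. All groups share the reporter line, and the replicates are repeats of 1 line rather than of different donors.

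MHC class I molecules show fragments of a cell's own proteins to CD8+ T cells and to natural killer cells. A polymorphic heavy chain such as HLA-B or HLA-C pairs with the invariant light chain beta-2-microglobulin (B2M), and HLA-E is a less variable heavy chain read mainly by natural killer receptors. Peptides are cut by the proteasome, whose inducible catalytic subunits PSMB8 and PSMB9 replace constitutive ones, and are carried into the endoplasmic reticulum by the transporter subunits TAP1 and TAP2, to which tapasin (TAPBP) tethers the empty heavy chain. Pluripotent cells are known for little class I at their surface, and interferons raise the whole pathway in most cell types. The transactivator NLRC5 and interferon regulatory factors (IRF) act at the promoters of several genes of this pathway.

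In the coordinates of GENCODE 29 (GRCh38), 8 of the 9 members lie in the MHC on chromosome 6, between 30489467 and 33314387, a stretch of 2.82 Mb, and B2M lies on chromosome 15 at 44711487 to 44718877. HLA-E (ENSG00000204592) lies at 30489467 to 30494205, HLA-C (ENSG00000204525) at 31268749 to 31272130 and HLA-B (ENSG00000234745) at 31269491 to 31357188, so that the spans of HLA-B and HLA-C overlap. TAP2 (ENSG00000204267), PSMB8 (ENSG00000204264), TAP1 (ENSG00000168394) and PSMB9 (ENSG00000240065) lie within 32821833 to 32859585, and TAPBP (ENSG00000231925) lies at 33299694 to 33314387. The annotated span of PSMB9 overlaps those of both PSMB8 and TAP1, and whether counting used strand is not stated in the sources used here. Whether the overlaps affected the counts of these genes was not tested.

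The promoters of these genes are shown because the members differ in direction between the gates while most share 1 short element. RefSeq promoter windows (GRCh38.p14, 250 bases before to 50 after the annotated start) were matched by symbol for 8 of the 9 members, 10 windows in all. Capitals mark the core AANNGAAA that interferon regulatory factors are known to bind, searched on both strands, with matches in tandem overlapping by 2 bases. The window of HLA-B is chr6:31357130-31357429 on the minus strand, that of HLA-C chr6:31272043-31272342 on the minus strand, that of B2M chr15:44711267-44711566 on the plus strand, that of TAP1 chr6:32853655-32853954 on the minus strand, that of TAPBP chr6:33314029-33314328 on the minus strand and that of PSMB9 chr6:32853942-32854241 on the plus strand.
HLA-B promoter: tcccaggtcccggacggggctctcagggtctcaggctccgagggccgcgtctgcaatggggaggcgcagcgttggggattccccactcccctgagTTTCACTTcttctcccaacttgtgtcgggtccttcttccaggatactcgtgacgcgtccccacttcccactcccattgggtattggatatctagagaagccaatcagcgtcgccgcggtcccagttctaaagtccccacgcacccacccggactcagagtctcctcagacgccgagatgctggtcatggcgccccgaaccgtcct
HLA-C promoter: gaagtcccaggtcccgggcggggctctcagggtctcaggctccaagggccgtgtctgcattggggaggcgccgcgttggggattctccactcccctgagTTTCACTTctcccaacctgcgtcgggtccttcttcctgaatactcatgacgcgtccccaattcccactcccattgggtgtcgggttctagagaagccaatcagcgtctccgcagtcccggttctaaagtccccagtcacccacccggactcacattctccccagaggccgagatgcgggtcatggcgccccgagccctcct
B2M promoter: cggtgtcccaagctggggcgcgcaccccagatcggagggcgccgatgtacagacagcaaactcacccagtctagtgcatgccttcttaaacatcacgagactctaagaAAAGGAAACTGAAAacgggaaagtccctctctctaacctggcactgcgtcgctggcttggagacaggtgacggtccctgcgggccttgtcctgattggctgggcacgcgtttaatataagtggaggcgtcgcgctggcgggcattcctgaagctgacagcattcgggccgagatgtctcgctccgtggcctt
TAP1 promoter: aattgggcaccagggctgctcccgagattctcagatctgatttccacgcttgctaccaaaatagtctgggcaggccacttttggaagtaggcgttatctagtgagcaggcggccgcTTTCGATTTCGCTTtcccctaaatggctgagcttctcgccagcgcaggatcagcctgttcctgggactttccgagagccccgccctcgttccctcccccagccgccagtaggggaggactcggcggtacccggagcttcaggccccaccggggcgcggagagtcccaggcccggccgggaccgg
TAPBP promoter: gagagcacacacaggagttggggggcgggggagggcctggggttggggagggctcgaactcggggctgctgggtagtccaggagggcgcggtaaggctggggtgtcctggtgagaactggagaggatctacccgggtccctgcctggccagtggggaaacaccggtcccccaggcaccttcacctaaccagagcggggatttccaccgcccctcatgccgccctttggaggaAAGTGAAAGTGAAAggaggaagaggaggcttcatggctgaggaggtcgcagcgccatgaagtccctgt
PSMB9 promoter: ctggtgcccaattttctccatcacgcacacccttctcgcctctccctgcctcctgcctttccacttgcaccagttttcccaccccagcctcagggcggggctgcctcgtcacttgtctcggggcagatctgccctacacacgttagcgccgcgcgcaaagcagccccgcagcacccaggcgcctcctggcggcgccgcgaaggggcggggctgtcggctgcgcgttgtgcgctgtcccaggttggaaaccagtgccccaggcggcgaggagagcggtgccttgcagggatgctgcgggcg

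The core was present in a window of 7 members, HLA-B, HLA-C, B2M, TAP1, TAP2, TAPBP and PSMB8, and was not in that of PSMB9. Over all 35116 RefSeq windows of this length, 22.8% held it. It lay at -155 to -148 from the start in HLA-B and at -151 to -144 in HLA-C, once in each, and as a tandem pair in B2M (-142 to -129), TAP1 (-134 to -121), TAP2 (-62 to -49), TAPBP (-18 to -5) and the second window of PSMB8 (-4 to 10), with no position 0. The core thus stood in members that were higher in SOX2-negative cells and in members that were lower there, as the next paragraphs show. The interferon-gamma site TTCNNNGAA, found in 7.66% of all windows, was in the second windows of TAP1 and PSMB8 only. The NF-kB motif (11.3% of all windows) matched in HLA-B, HLA-C, B2M, TAP1 and TAPBP, the CRE core TGACG (24.6%) in HLA-B, HLA-C, B2M, TAP2, PSMB8 and PSMB9, and the CCAAT box CCAAT (34.6%) in HLA-B, HLA-C, B2M, TAP1 and PSMB9. The TAP1 and PSMB9 windows run in opposite directions and overlap at their far ends. A match of letters is not a measured binding site.

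**Figure D1:**
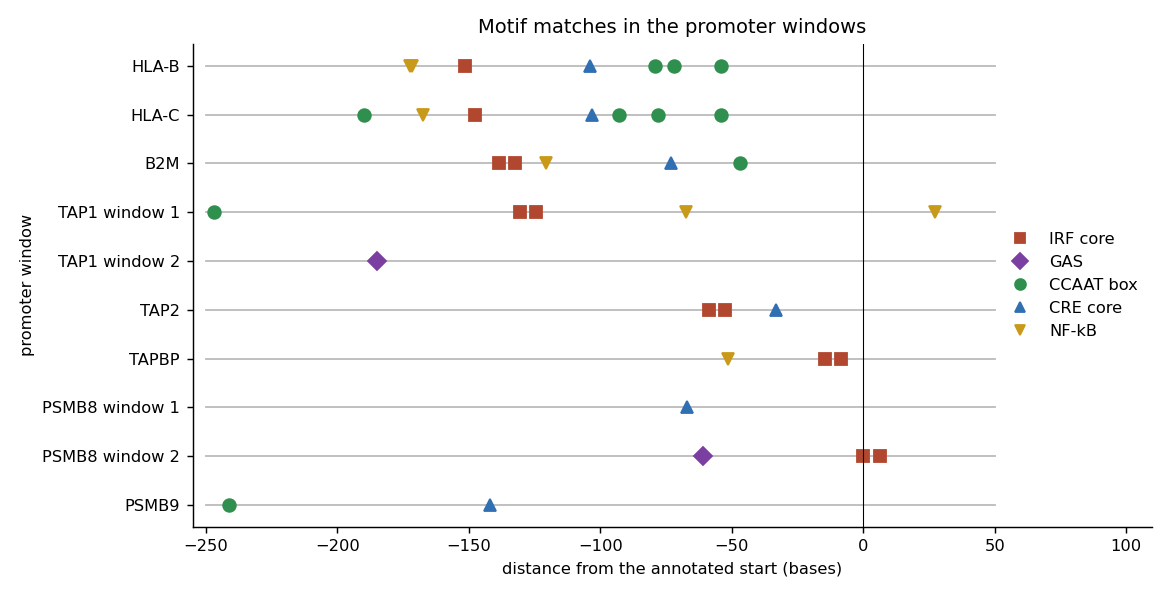
Each grey line is a RefSeq promoter window of a member, and markers give the centre of each motif match on either strand by distance in bases from the annotated start (vertical line). HLA-B and HLA-C share a similar order of NF-kB, IRF, CRE and CCAAT matches, and TAP1, TAP2, TAPBP, B2M and the second PSMB8 window carry the IRF core as a pair.

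Libraries held 16474856 to 28079048 estimated counts. The first 2 principal components held 52.1% and 17% of the variance, and on the second WNT3A 100 SOX2-negative replicate 2 had -41.7, against -0.9 to 13.7 for the remaining SOX2-negative ones. That library also differed from its partner by GC content. In the quartile of genes with the highest GC in their longest GENCODE 29 transcript (57.2% or more), the median log2 difference of replicate 2 from replicate 1 was 0.52, and in the lowest quartile (42.5% or less) it was -0.57. The gap between these quartiles was thus 1.09, against -0.58 in WNT3A 1000 SOX2-negative cells and -0.12 to 0.15 in the other 3 groups with 2 libraries. The gates held as labelled: mean SOX2 was 4.07 CPM in SOX2-negative libraries, 437.5 CPM in SOX2-positive libraries and 663.9 CPM in control. The marker sums of definitive endoderm were 708 to 1290 CPM in SOX2-negative, 8.62 to 27.2 CPM in SOX2-positive and 3.91 to 7.73 CPM in control libraries. Those of 7 pluripotency genes were 2050 to 3240, 4540 to 5350 and 5050 to 5190 CPM in the same order. Mesoderm markers summed to 158 to 470, 8.41 to 21 and 21 to 29.9 CPM, and amnion and trophoblast markers (CGA and XAGE2 at 0 in all libraries) to 163 to 224, 18.4 to 74.6 and 233 to 315 CPM. Neural markers summed to 0.247 to 2.99, 4.71 to 55.7 and 364 to 493 CPM, and endothelial markers to 46.1 to 302, 116 to 216 and 51.8 to 71.3 CPM. The 10 markers of immune cells, in which the members are abundant, summed to 4.9 to 7.6, 3.62 to 5.7 and 3.35 to 3.37 CPM, with PTPRC at 0 in control. A sum can be led by 1 gene. KDR alone held 96.2 to 190 CPM in SOX2-positive libraries. Of the 6 endothelial markers 3 were called higher and 1 lower in SOX2-negative than in SOX2-positive cells. Among amnion and trophoblast markers, GATA3 held 140 to 180 CPM in SOX2-negative libraries and TFAP2A 155 to 211 CPM in control. TFAP2A held 1.88 to 7.87 CPM in SOX2-negative libraries. The part of these cell types in the members' differences was not tested. In bulk RNA, fewer cells of a type and less RNA per cell cannot be told apart.

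**Figure D2:**
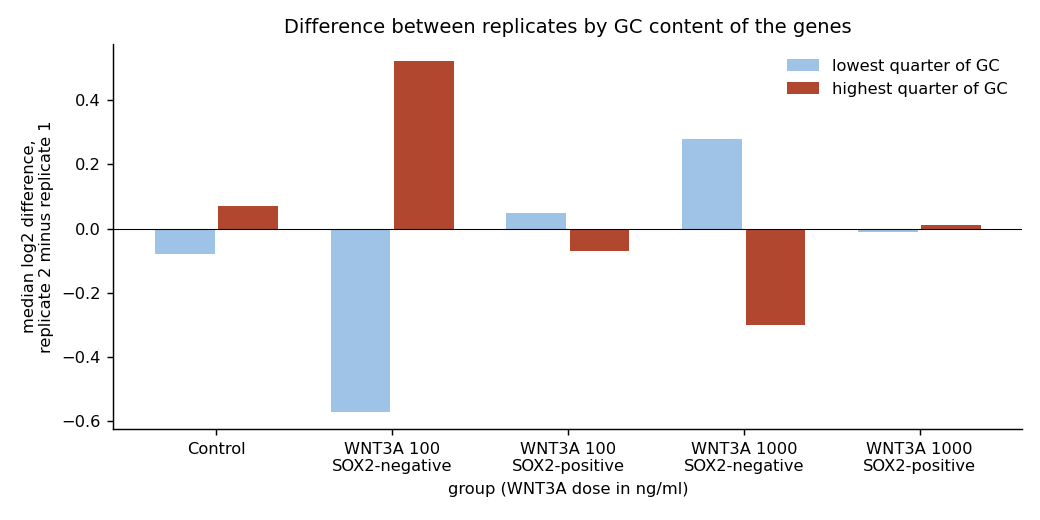
Bars give the median log2 difference between replicate 2 and replicate 1 of each group over genes in the lowest and the highest quartile of transcript GC content. WNT3A 100 SOX2-negative libraries differ by -0.57 and 0.52, the widest gap among the 5 groups.

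The 3 comparisons across all genes below form the background, each by edgeR's quasi-likelihood test at an adjusted p under 0.05. Between SOX2-negative and SOX2-positive cells, averaged over 100 and 1000 ng/ml, 24% of the genes tested were called, 12.9% higher and 11.1% lower in SOX2-negative cells. In SOX2-positive cells against control 7.81% were called, 4.65% higher and 3.17% lower, and in SOX2-negative cells against control 22.5% were called, 12.4% higher and 10.1% lower. Of the 9 members, 2 were called higher and 5 lower between the gates, 2 higher and 0 lower in SOX2-positive cells against control, and 4 higher and 3 lower in SOX2-negative cells against control. Since these contrasts use the values that chose the members, nothing is read from those counts. Both comparisons with control use the same 2 control libraries. Fold changes below are log2 values from that model with their standard error (SE), and levels are CPM after TMM adjustment of the library totals. A CPM level is not corrected for transcript length, so levels are compared within a gene. Where values of a gate are listed for single libraries, they run from low to high WNT3A.

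The heavy chain HLA-B stood higher in every SOX2-negative library than in any other. Control libraries held 56.3 and 46.7 CPM, and SOX2-positive libraries held 74.6 and 70.0 CPM with 100 ng/ml WNT3A, 83.9 CPM with 300 and 84.4 and 85.7 CPM with 1000. SOX2-negative libraries held 757 and 2824 CPM with 100, 625 CPM with 300 and 505 and 808 CPM with 1000. The 3 kinds of cell did not overlap, and WNT3A 100 SOX2-negative replicate 2 held the highest value. The log2 fold change between the gates was 3.79 ± 0.36 SE, and 3.17 without that library. From the same colonies, SOX2-negative cells held 5.99 to 40.3 times the HLA-B of their SOX2-positive partners over 5 pairs, 5.99 to 10.1 times in the 4 pairs without that library.

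HLA-C, the other classical heavy chain among the members, followed the same order with a smaller gap. It stood at 162 and 168 CPM in control, at 195 to 232 CPM over the 5 SOX2-positive libraries and at 522 and 1417 (100 ng/ml), 467 (300 ng/ml), 424 and 407 CPM (1000 ng/ml) in SOX2-negative cells. No 2 kinds of cell overlapped, and the highest value again came from WNT3A 100 replicate 2. Between the gates its log2 fold change was 1.56 ± 0.25 SE, and 1.11 without that library. The pairs from the same colonies gave ratios of 1.82 to 7.28, and of 1.82 to 2.48 without that library.

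HLA-E, the heavy chain that natural killer receptors read, stood at 30.3 and 32.3 CPM in control, at 49.7, 43.6, 51.0, 55.5 and 56.5 CPM in SOX2-positive libraries and at 64.0, 93.8, 70.7, 79.1 and 55.3 CPM in SOX2-negative libraries, each from low to high WNT3A. Every treated library was above both controls, and the gates overlapped through the 1000 ng/ml SOX2-negative replicate 2. The log2 fold change was 0.71 ± 0.22 SE in SOX2-positive and 1.22 ± 0.23 SE in SOX2-negative cells against control, and 0.51 ± 0.17 SE between the gates (0.36 without WNT3A 100 SOX2-negative replicate 2).

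The light chain B2M did not share the gap of the heavy chains between the gates. It stood at 22.0 and 22.2 CPM in control, at 41.2, 32.5, 42.6, 42.3 and 42.9 CPM in SOX2-positive libraries and at 32.7, 33.3, 30.8, 33.7 and 35.3 CPM in SOX2-negative libraries. Both gates were above control in every library (log2 fold change 0.84 ± 0.18 SE and 0.61 ± 0.18 SE), and they overlapped each other (-0.23 ± 0.14 SE). WNT3A 100 SOX2-negative replicate 2, where HLA-B and HLA-C peaked, held 33.3 CPM of B2M, within the range of the other SOX2-negative libraries. The GC content of the longest transcript was 40.6% for B2M, 59% for HLA-B and 62.7% for HLA-C, and the part of GC content in that library's values was not tested.

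**Figure D3:**
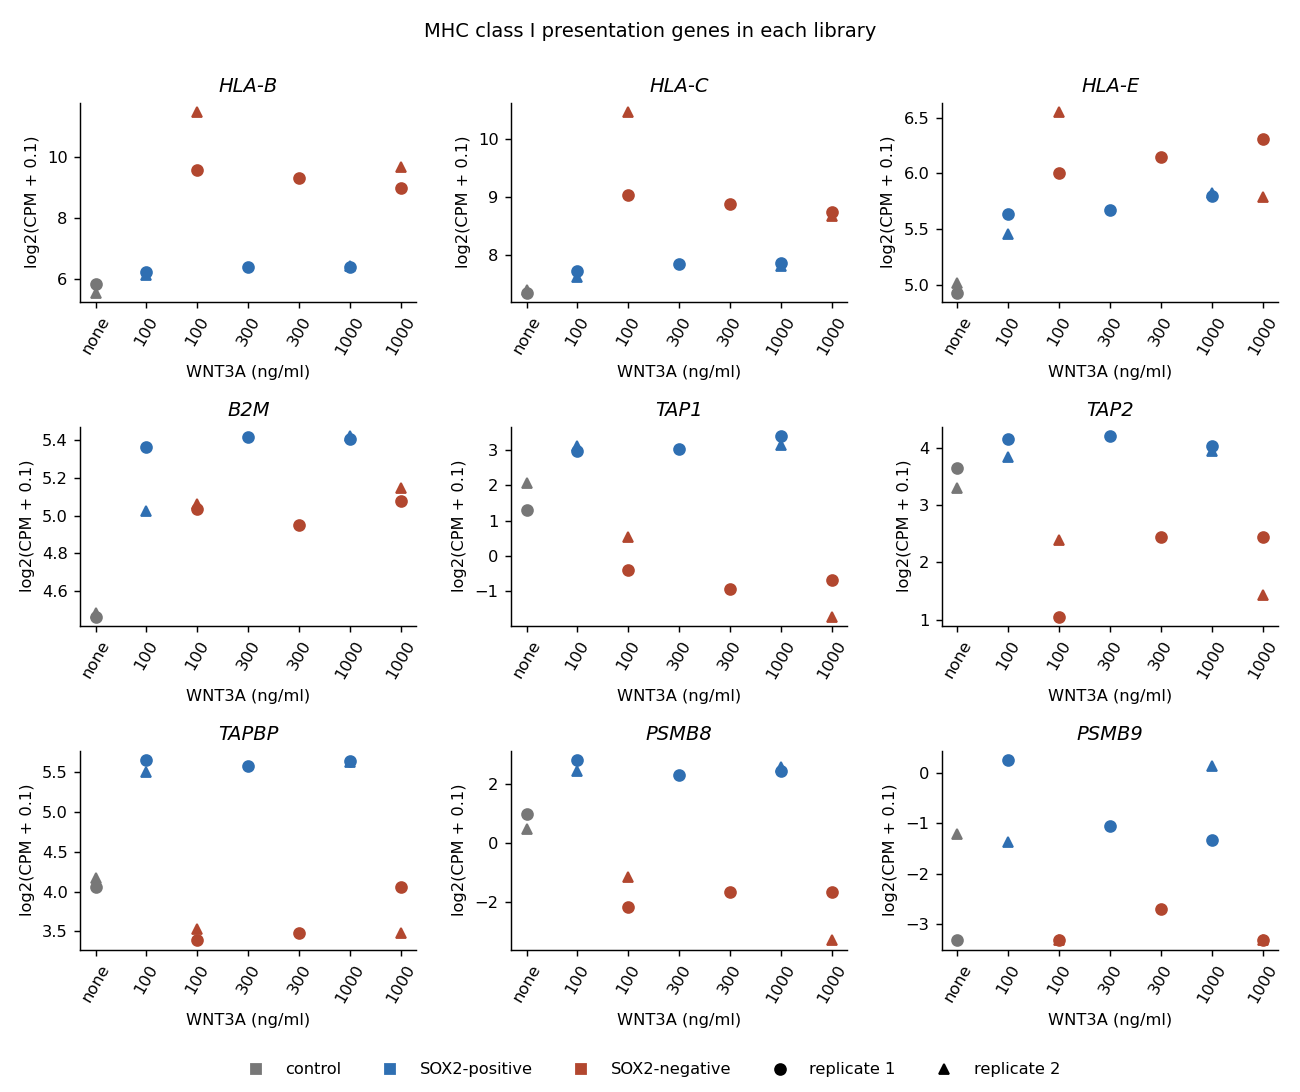
Each panel plots 1 gene as log2(CPM + 0.1) in every library by WNT3A dose, in control (grey), SOX2-positive (blue) and SOX2-negative cells (red), with circles for replicate 1 and triangles for replicate 2, and with its own axis. HLA-B and HLA-C lie highest in the red points, TAP1, TAP2, TAPBP and PSMB8 lie highest in the blue points, and B2M lies lowest in control.

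The peptide transporter ran the other way. TAP1 stood at 2.39 and 4.06 CPM in control, at 7.74, 8.54, 8.08, 10.4 and 8.64 CPM in SOX2-positive libraries and at 0.658, 1.37, 0.429, 0.532 and 0.206 CPM in SOX2-negative libraries, each of the last resting on 5 to 32 counts. The SOX2-positive libraries were all above control and the SOX2-negative ones all below it. Between the gates the log2 fold change was -3.84 ± 0.39 SE, and TAP1 was 6.24 to 41.9 times higher in the SOX2-positive partner over the 5 pairs.

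TAP2, the partner subunit, was at 12.6 and 9.81 CPM in control, at 14.3 to 18.5 CPM in SOX2-positive libraries and at 1.98, 5.13, 5.36, 5.37 and 2.60 CPM in SOX2-negative libraries. The order was that of TAP1, positive above control above negative in every library, with a log2 fold change of -2.08 ± 0.32 SE between the gates. The pairs gave 2.79 to 8.99 times more in SOX2-positive cells.

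Tapasin, TAPBP, was at 16.6 and 17.9 CPM in control, at 50.2, 45.2, 47.5, 49.6 and 49.5 CPM in SOX2-positive libraries and at 10.4, 11.5, 11.03, 16.6 and 11.1 CPM in SOX2-negative libraries. The SOX2-positive values spread little and lay above all others, with a log2 fold change of 1.5 ± 0.22 SE against control and -1.98 ± 0.17 SE between the gates. SOX2-negative cells overlapped control through 1 library, 1000 ng/ml replicate 1 (-0.49 ± 0.20 SE).

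The inducible proteasome subunits followed the transporter, on few counts. PSMB8 stood at 1.88 and 1.28 CPM in control, at 6.94, 5.28, 4.85, 5.37 and 5.88 CPM in SOX2-positive libraries and at 0.120, 0.342, 0.214, 0.213 and 0 CPM in SOX2-negative libraries, where no library held more than 8 counts. The SOX2-positive libraries lay above control and the SOX2-negative ones below it, and between the gates the log2 fold change was -5.21 ± 0.60 SE. With so few counts it moved to -7.28 without WNT3A 1000 SOX2-negative replicate 1 and to -4.67 without replicate 2 of that group. PSMB9 had 22, 7, 8, 5 and 22 counts in SOX2-positive libraries, 0 and 9 in control and 1 count in the 5 SOX2-negative libraries together, at 300 ng/ml. Over the 8 libraries at 100 and 1000 ng/ml it was at least 18.6-fold lower in SOX2-negative cells, with 0 counts set to a floor of 3 over the group, which covers counting error only.

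**Figure D4:**
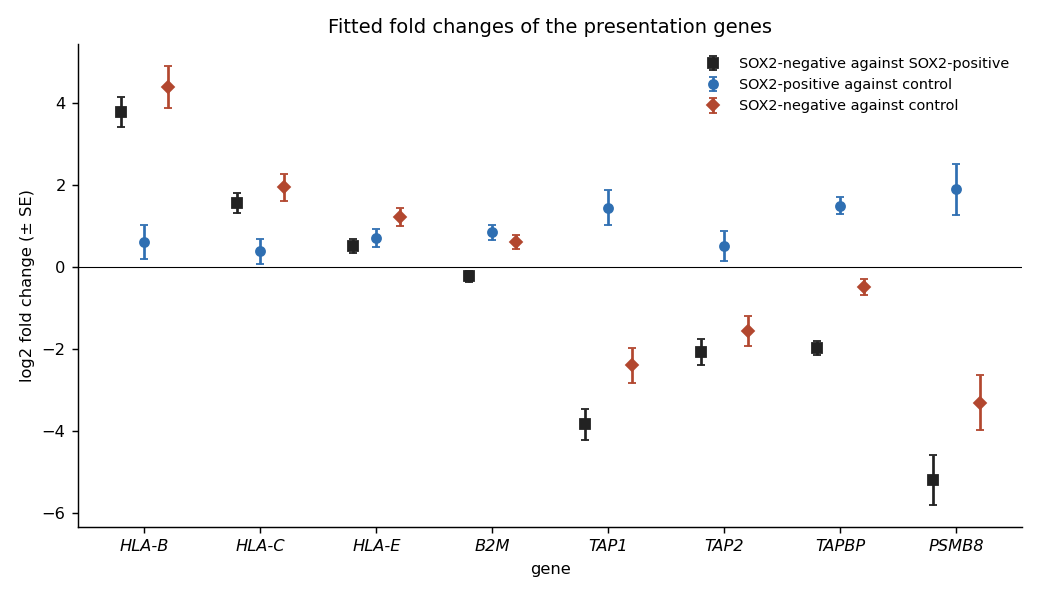
Points give the fitted log2 fold change of 8 members in 3 comparisons and bars its standard error, with PSMB9 left out because SOX2-negative cells had 0 counts at 100 and 1000 ng/ml. HLA-B and HLA-C lie above 0 and TAP1, TAP2, TAPBP and PSMB8 below it between the gates (black squares), and all 8 lie above 0 in SOX2-positive cells against control (blue circles).

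No gene, member or not, was called by WNT3A dose in the fit of all libraries. Of all genes tested 0% were called between 1000 and 100 ng/ml in SOX2-positive cells, 0% in SOX2-negative cells and 0% for the difference of the dose effect between the gates by edgeR (293, 3107 and 1349 genes had an unadjusted p under 0.05, and DESeq2 called 5, 411 and 16), so 0 members were called. In SOX2-positive cells the members' log2 fold changes for 1000 against 100 ng/ml ran from -0.12 (PSMB8) to 0.26 (HLA-E). In SOX2-negative cells they ran from -1.51 ± 0.58 SE for TAP1 to 0.34 ± 0.24 SE for TAPBP, with PSMB9 at 0 counts in both groups, and PSMB8 had -1.27 ± 1.02 SE. TAP1 had -0.87 without WNT3A 100 SOX2-negative replicate 2 and -2.29 without WNT3A 1000 SOX2-negative replicate 1, and PSMB8 had -5.39 without the latter and -0.18 without replicate 2 of that group. HLA-B had -1.45 ± 0.47 SE and HLA-C -1.22 ± 0.36 SE. Without WNT3A 100 SOX2-negative replicate 2 these became -0.21 and -0.33, and without replicate 1 of that group -2.09 and -1.76. With replicate 1 left out, 5739 genes in all were called by dose in SOX2-negative cells.

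Class I heavy chain genes are similar in sequence, and reads can be assigned to one or another of them, so the levels of HLA-B, HLA-C and HLA-E are uncertain to that extent. The members' counts were also split among rows. Each symbol stood on 2 to 7 identifiers, and the identifier on the primary chromosome held 0.0193% (HLA-E) to 75.4% (B2M) of a member's counts. On that identifier alone the log2 fold change between the gates kept its sign for HLA-B (3.50 ± 0.77 SE, on 0.333% of its counts), HLA-C (5.80 ± 1.80 SE, on 0.0329%), B2M (-0.22 ± 0.14 SE, on 75.4%), TAPBP (-3.37 ± 0.89 SE, on 48.4%) and PSMB8 (-6.63 ± 1.81 SE, on 15.7%), so for HLA-B and HLA-C this rests on very few reads. For TAP1 and TAP2, which had 14.3% and 37.5% of their counts there, no usable value between the gates could be had, since the standard errors were far above the values. In SOX2-positive cells against control these had -4.17 ± 1.93 SE and -4.44 ± 1.52 SE on that identifier, against 1.44 and 0.51 summed, so their direction against control holds only for the summed rows.

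Other class I and class I-like genes were called in both directions. Of 11 such genes 10 were tested, and between the gates 1 was called higher and 2 lower, with a median log2 fold change of -0.54, against 0.01 over all genes. Of all genes 12.9% were called higher and 11.1% lower. HLA-F was lower in SOX2-negative than in SOX2-positive cells (0.555 ± 0.236 against 2.12 ± 0.66 CPM, SD, n = 4 each, adjusted p = 0.0099, edgeR). Its control level was 0.64 ± 0.18 CPM (n = 2), and it was not called in SOX2-negative cells against control (adjusted p = 0.74, edgeR). ULBP1, a ligand of the natural killer receptor NKG2D, had a log2 fold change of -2.62 between the gates (adjusted p = 0.025, edgeR). With 100 ng/ml WNT3A its means were 0.0299 CPM (1 count) in SOX2-negative and 0.805 CPM in SOX2-positive cells. With 1000 ng/ml they were 0.852 and 1.28 CPM. CD1D, which presents lipids, was called higher (8.06 ± 3.62 against 4.54 ± 1.95 CPM, adjusted p = 0.041, edgeR). The ULBP1 call was lost without any 1 of 5 libraries (both of WNT3A 1000 SOX2-negative, WNT3A 100 SOX2-negative replicate 2 and replicate 1 of both SOX2-positive groups, adjusted p = 0.056 to 0.076, edgeR), and that of CD1D without any 1 of 6 (WNT3A 100 SOX2-negative replicate 2, WNT3A 1000 SOX2-negative replicate 1 and the 4 SOX2-positive ones at 100 and 1000 ng/ml, adjusted p = 0.074 to 0.17, edgeR). CD1D had a mean of 0.507 CPM in control (n = 2) and was called higher than that in both gates. Its log2 fold changes against control were 3.01 in SOX2-positive and 3.87 in SOX2-negative cells (adjusted p = 0.0021 and 0.00011, edgeR). Those calls held when each of 10 libraries was left out in turn. HLA-G, known from trophoblast, stood at 0 to 1.77 CPM in all libraries and was not called between the gates (adjusted p = 0.3, edgeR).

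Among 9 genes of peptide loading and trimming, 4 were called higher and 1 lower in SOX2-negative cells (of all genes 12.9% and 11.1%), with a median log2 fold change of 0.45. The chaperones of the endoplasmic reticulum HSPA5 (1191 ± 61.1 against 547 ± 123 CPM, adjusted p = 0.00046), HSP90B1 (1327 ± 264 against 813 ± 91.2 CPM, adjusted p = 0.008) and CALR (1134 ± 268 against 625 ± 152 CPM, adjusted p = 0.01) were higher than in SOX2-positive cells. So was PDIA3 (log2 fold change 0.45, adjusted p = 0.029, all edgeR). In SOX2-negative cells against control, HSPA5 and HSP90B1 were called higher (log2 fold changes 0.81 and 0.72). CALR and PDIA3 were not called there (adjusted p = 0.22 and 0.36, edgeR). On leaving out 1 library, HSPA5 against control ran from 0.764 to 0.822 and HSP90B1 from 0.563 to 0.838. Both calls were lost when either control was left out, and that of HSP90B1 also without WNT3A 1000 SOX2-negative replicate 2. Calreticulin (CALR) and PDIA3 sit in the loading complex with tapasin and also fold other glycoproteins. ERAP1, which trims peptides in the endoplasmic reticulum, fell from 27.4 ± 1.39 to 10.5 ± 4.27 CPM, by edgeR with an adjusted p = 0.00096 and a log2 fold change of -1.45 ± 0.23 SE. TAPBPL, a relative of tapasin, was not called (-0.54 ± 0.60 SE, adjusted p = 0.55, edgeR). The PDIA3 call was lost without any 1 of 7 libraries (both controls, both of WNT3A 100 SOX2-positive, both of WNT3A 1000 SOX2-negative, and replicate 2 of WNT3A 1000 SOX2-positive cells, with adjusted p = 0.055 to 0.14, edgeR), and that of CALR without WNT3A 100 SOX2-positive replicate 2 (adjusted p = 0.055, edgeR).

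In the proteasome outside PSMB8 and PSMB9 no gene passed the test with all libraries. Of 14 constitutive core subunits 0 were called between the gates by edgeR (24% of all genes were), with 2 at an unadjusted p under 0.05 and a median log2 fold change of 0.22. PSMB5 and PSMB6, 2 catalytic subunits that the inducible ones replace, had 0.44 ± 0.21 SE (adjusted p = 0.15, edgeR) and 0.33 ± 0.21 SE (adjusted p = 0.29, edgeR). Of the 4 other inducible genes PSMB10, PSME1, PSME2 and POMP, 0 were called, with 1 at an unadjusted p under 0.05. Without WNT3A 100 SOX2-negative replicate 2, PSMB10 had -0.77 and PSME1 -0.54. Without replicate 1 of that group PSMB5, PSMB6 and the core subunit PSMB7 (0.40 with all libraries) had 0.625, 0.524 and 0.544. Each of these genes was called in the fit named, which left 1 library in that group.

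Of 11 factors of MHC promoters, 0 were called higher and 2 lower between the gates (of all genes 12.9% and 11.1%), with a median log2 fold change of -0.29. NLRC5, the class I transactivator, stood at 0.711 and 0.622 CPM in control, at 0.951 to 1.83 CPM in SOX2-positive and at 0 to 0.47 CPM in SOX2-negative libraries, and it fell between the gates (log2 fold change -3.03 ± 0.71 SE, adjusted p = 0.011, edgeR). The NLRC5 call held when each of 10 libraries was left out in turn, with a log2 fold change of -2.63 without WNT3A 1000 SOX2-negative replicate 1 and of -4.84 without replicate 2 of that group. IRF2 was also lower in SOX2-negative than in SOX2-positive cells (-0.87 ± 0.25 SE, adjusted p = 0.026, edgeR), a call lost without any 1 of 4 libraries (WNT3A 1000 SOX2-negative replicate 1, both of WNT3A 1000 SOX2-positive and replicate 2 of WNT3A 100 SOX2-positive cells, adjusted p = 0.053 to 0.1, edgeR). Mean IRF2 was 5.04 CPM in control, 8.51 CPM in SOX2-positive and 4.66 CPM in SOX2-negative libraries. The class II transactivator CIITA (0.10 ± 0.41 SE, adjusted p = 0.89), RFX5 (-0.29 ± 0.13 SE, adjusted p = 0.14) and IRF1 (0.34 ± 0.33 SE, adjusted p = 0.5, all edgeR) were not called, though RFX5 was without WNT3A 100 SOX2-negative replicate 1 (-0.36, adjusted p = 0.029, edgeR). NLRC5 differed in the direction of TAP1, TAP2, TAPBP and PSMB8 and opposite to HLA-B and HLA-C, and its part in their differences was not tested. It had few counts in SOX2-negative cells, 17 at 100, 8 at 300 and 3 at 1000 ng/ml.

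Of 13 interferon receptor and JAK/STAT genes, 5 were called higher and 1 lower in SOX2-negative cells (of all genes 12.9% and 11.1%). SOCS3, a feedback inhibitor of cytokine receptors, rose from 16.4 ± 9.12 to 107 ± 47.1 CPM, by edgeR with an adjusted p = 0.001 and a log2 fold change of 2.74 ± 0.43 SE, and JAK2, IRF9, IFNAR2 and IFNGR1 had log2 fold changes of 0.86, 0.72, 0.72 and 0.60. STAT3, which relays signals of interleukin-6 family cytokines, fell (-0.84 ± 0.13 SE, adjusted p = 0.00079, edgeR). Leaving out 1 library ended the IRF9 call for 9 of 10 libraries (all but WNT3A 100 SOX2-negative replicate 1, adjusted p = 0.061 to 0.16, edgeR) and the JAK2 call for 9 of 10 (all but replicate 2 of that group, adjusted p = 0.06 to 0.13, edgeR). It ended that of IFNGR1 for 3 (both of WNT3A 100 SOX2-positive and replicate 1 of WNT3A 1000 SOX2-positive cells, adjusted p = 0.056 to 0.081, edgeR). Against control, 3 of the 13 were called higher and 0 lower in SOX2-positive cells (of all genes 4.65% and 3.17%), and 6 higher and 1 lower in SOX2-negative cells (of all genes 12.4% and 10.1%). In SOX2-positive cells these were JAK1, SOCS1 and SOCS3, with log2 fold changes of 1.35, 1.54 and 2.28. Each call was lost when either control, or replicate 1 of either SOX2-positive group, was left out, that of SOCS1 also without WNT3A 100 SOX2-positive replicate 2 (adjusted p = 0.052 to 0.35 over these, edgeR). In SOX2-negative cells the calls of IFNAR2 (1.02), SOCS3 (5.02) and STAT3 (-0.95) held when each of 10 libraries was left out. The call of IFNGR1 was lost without either control (adjusted p = 0.051 and 0.1, edgeR). Those of IFNGR2, JAK1 and SOCS1 were lost for 7, 7 and 6 of the 10, among them both controls, both of WNT3A 100 SOX2-positive and replicate 1 of WNT3A 1000 SOX2-negative cells (adjusted p = 0.05 to 0.28, edgeR).

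Interferon-stimulated genes were called in both directions, as were genes in general. Of 35 listed 25 were tested, and 2 were called higher and 5 lower between the gates (of all genes 12.9% and 11.1%), with a median log2 fold change of -0.39. IDO1, a tryptophan-degrading enzyme, fell from 75.3 ± 29.8 to 0.565 ± 0.155 CPM (adjusted p = 9.8e-07, edgeR), and TRIM22 from 42.3 ± 2.72 to 1.62 ± 0.776 CPM (adjusted p = 5.7e-07, edgeR). IFIH1, a sensor of double-stranded RNA, and IFIT1 were called lower from levels of 1.43 ± 0.635 and 3.43 ± 1.68 CPM in SOX2-positive cells. UBE2L6 was the fifth called lower (log2 fold change -1.14), and the 2 called higher were IFI16 (3.25) and AC004551.1 (3.84), all 3 named after their values were seen. AC004551.1 is the file's symbol for the row matched to OAS1 by gene identifier only, and whether it measures OAS1 was not tested. In SOX2-positive cells against control IDO1 (1.49 ± 0.36 SE, adjusted p = 0.028, edgeR) and IFITM1 (1.52 ± 0.41 SE, adjusted p = 0.046, edgeR) rose. Leaving out 1 library ended the IDO1 call against control for 5 (both controls, both of WNT3A 100 SOX2-positive and replicate 2 of WNT3A 1000 SOX2-positive cells, adjusted p = 0.054 to 0.34, edgeR) and that of IFITM1 for 5 (both controls, both of WNT3A 100 SOX2-positive and replicate 1 of WNT3A 1000 SOX2-positive cells, adjusted p = 0.051 to 0.29, edgeR). It ended the IFIH1 call between the gates for 2 (WNT3A 100 SOX2-positive replicate 1 and WNT3A 1000 SOX2-negative replicate 2, adjusted p = 0.061 and 0.068, edgeR).

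MHC class II genes, of which 11 of 12 were tested, gave 0 higher and 4 lower between the gates (of all genes 12.9% and 11.1%), HLA-DRA, HLA-DQB1, HLA-DOA and CD74. From SOX2-positive to SOX2-negative cells, HLA-DOA fell from 45.2 ± 5.31 to 18.2 ± 5.54 CPM (adjusted p = 0.0002, edgeR). CD74, the invariant chain, fell from 22.7 ± 1.52 to 13.6 ± 5.96 CPM (adjusted p = 0.028, edgeR). Mean control levels were 28.15 CPM for HLA-DOA and 17.68 CPM for CD74, and CD74 was not called in SOX2-negative cells against control (adjusted p = 0.3, edgeR). HLA-DRA stood at 1.73 and 1.21 CPM in control, at 0.248 to 0.86 CPM in SOX2-positive and at 0 to 0.0532 CPM in SOX2-negative libraries (adjusted p = 0.0088, edgeR). Of 10 NF-kB genes, the inhibitors NFKBIA (68.3 ± 24.7 against 27.6 ± 7.64 CPM, adjusted p = 0.0058, edgeR) and TNFAIP3 (log2 fold change 1.26 ± 0.37 SE, adjusted p = 0.03, edgeR) were called higher and 0 lower between the gates (of all genes 12.9% and 11.1%). In SOX2-negative cells against control NFKBIA was called higher (log2 fold change 1.85), and TNFAIP3 was not called (adjusted p = 0.15, edgeR). The NFKBIA call against control was lost without control replicate 1. Its log2 fold change there ran from 1.445 to 2.092 on leaving out 1 library. The call of CD74 was lost without any 1 of 5 libraries (the 4 SOX2-positive ones at 100 and 1000 ng/ml and WNT3A 1000 SOX2-negative replicate 2, adjusted p = 0.06 to 0.094, edgeR), and that of TNFAIP3 without any 1 of 5 (replicate 1 of each of the 4 treated groups with 2 libraries and WNT3A 1000 SOX2-negative replicate 2, adjusted p = 0.06 to 0.11, edgeR). HLA-DQB1 lost its call without any 1 of 3 (replicate 1 of WNT3A 100 SOX2-positive and of WNT3A 1000 SOX2-negative cells, and replicate 2 of WNT3A 1000 SOX2-positive cells, adjusted p = 0.051 to 0.081, edgeR).

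**Figure D5:**
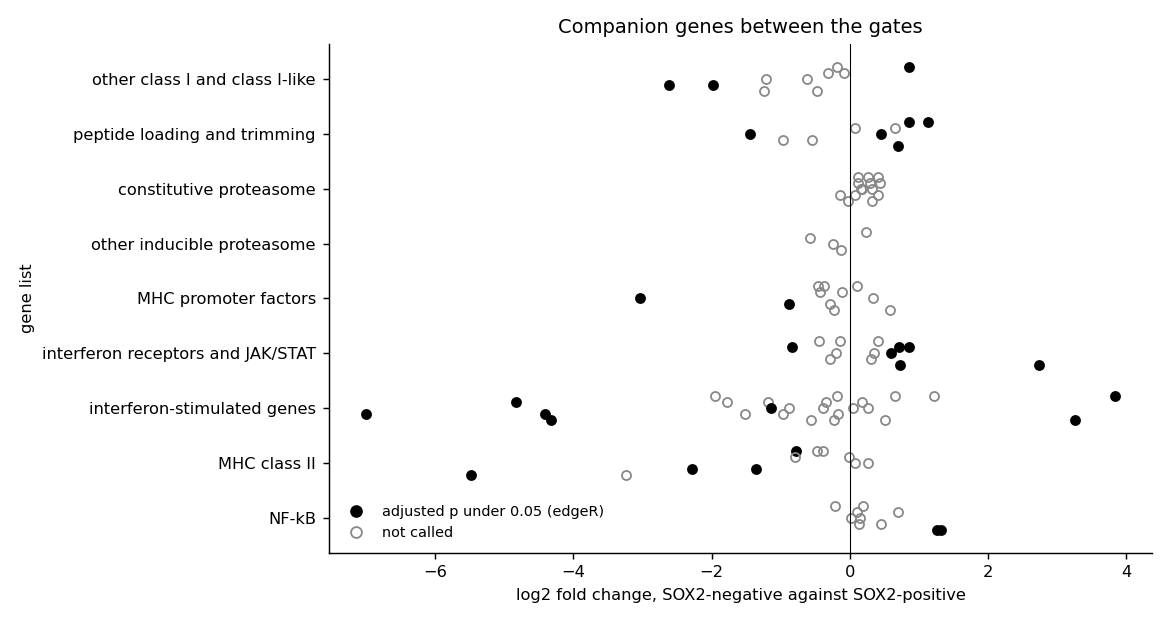
Each point is a gene of a companion list by its log2 fold change in SOX2-negative against SOX2-positive cells, filled where edgeR's adjusted p is under 0.05. The 14 constitutive proteasome genes sit near 0 with 0 called, while the interferon-stimulated genes spread on both sides, with IDO1 farthest to the left.

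Leaving out WNT3A 100 SOX2-negative replicate 2 left 1 library in that group. List genes called in that fit are therefore not counted here.

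Between HLA-E and TAPBP on chromosome 6 lie 128 further genes of the table that are in none of the lists used here, so that class II genes such as HLA-DRA are not among them. Of these 88 were tested, and 12 were called higher and 2 lower between the gates, against 24% of all genes called either way, with a median log2 fold change of 0.09.

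Ranked by the Pearson correlation of log2 CPM with the mean profile of the 9 members over the 12 libraries, the 10 nearest genes among those with a mean of 1 CPM or more were PARP12 (0.967), SYT12 (0.965), C9orf135 (0.964), ZNF749 (0.964), ERGIC1 (0.963), TRNP1 (0.96), IL34 (0.956), KDM4B (0.955), POU5F1 (0.951) and TKT (0.95). That mean combines members that ran in opposite directions in SOX2-negative cells, and the points share the 2 gates. PARP12 stood at 3.84 ± 0.47 CPM in control (n = 2), 8.56 ± 1.10 CPM in SOX2-positive and 4.70 ± 1.22 CPM in SOX2-negative libraries (SD, n = 4 each). The pluripotency factor POU5F1, itself inside this stretch of chromosome 6, stood at 466 ± 51.9, 1438 ± 400 and 464 ± 205 CPM in the same order. Ranked after the values were seen against HLA-B alone, the nearest genes were GAL3ST1 (0.988), COL18A1 (0.987) and PLOD1 (0.985), and against TAPBP alone SLC1A1 (0.979), GNG4 (0.978) and GLB1L3 (0.977).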

How the data were processed

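Values were estimated counts per gene identifier that the authors made from paired-end reads with Salmon on GRCh38, per the submitters' processing notes (version not given in the sources used here), after poly-A selection and random-hexamer priming, per the labels' protocols. The 12 libraries held 16474856 to 28079048 estimated counts. Of 37951 identifiers 35003 were in GENCODE 29. Rows sharing a symbol were summed (35940 symbols) and rounded, since reads of near-identical copies, such as the alternate sequences of the MHC, are split among identifiers. Library totals were scaled by TMM, and genes were kept by filterByExpr (minimum count 10, minimum total 15), leaving 17047. The main test was edgeR 4.0.16 quasi-likelihood (R 4.3.3, limma 3.58.1; residual df 5, prior df 5.6) with 7 group means, two-sided, Benjamini-Hochberg adjusted over all genes, threshold 0.05. Contrasts between gates and with control averaged the groups at 100 and 1000 ng/ml. The script was tested on simulated data. Replicates are separate biological repeats of 1 line, so p-values cover the spread between them.

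Per the series' text, cells of both gates were sorted from 1 set of colonies for each dose, and a second biological repeat has number 2, which pairs same-numbered libraries. Over 10 pairs of groups, same-numbered libraries' deviations correlated at -0.15 to 0.32, with 5 over 0.1. Figures used Python 3.11.15 and matplotlib 3.10.9, with an offset of 0.1 CPM on the log scale.

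The 9 members and the companion lists were chosen with earlier results of these data known. Named companions are a fixed list plus, per list, up to 4 called genes between the gates and up to 3 in each other comparison by size of fold change, and the 10 genes most like the members' mean. Alternatives were RLE scaling, plain totals, no filter, a replicate block, only the compared groups, 3 doses averaged, DESeq2 1.42.0, identifiers kept apart, the primary-chromosome identifier only, and leaving out each of 10 libraries. Counts of members and list genes called under each alternative were added after seeing the data. They are not printed, except some of members in SOX2-positive cells against control. Some genes of the lists are not reported here and enter no list count.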

Additional observations from a re-analysis of the deposited data

Results flagged for a closer look

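TAP1, TAP2 and PSMB8 stood above both controls in every SOX2-positive library and below both in every SOX2-negative library. The share of all genes in this order was not counted, so nothing is read from it. TAP1 had a log2 fold change of 1.44 ± 0.43 SE in SOX2-positive and -2.4 ± 0.42 SE in SOX2-negative cells against control. TAP2 had 0.51 ± 0.38 SE and -1.56 ± 0.37 SE, and PSMB8 had 1.89 ± 0.62 SE and -3.31 ± 0.66 SE. On leaving out 1 library that value of PSMB8 in SOX2-negative cells ran from -5.39 (without WNT3A 1000 SOX2-negative replicate 1) to -2.78 (without replicate 2 of that group). The difference between the gates' effects was not tested for these genes, since their levels chose them, and both effects use the same 2 control libraries.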

How the results depend on the processing

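Of 761 values of members' fold changes under alternatives 713 moved by less than the spread between replicates and 48 by more. Of 1210 values of companions, 1030 kept their direction and side of the threshold, 164 lost the call, 11 gained it and 5 reversed. Members' fold changes between the gates and in SOX2-negative cells against control kept their sign, except that PSMB9 against control came to 0 without control replicate 2. In SOX2-positive cells against control, TAP1 had -4.17 and TAP2 -4.44 on the primary identifier alone. Several dose effects changed sign, among them those of HLA-C in SOX2-negative cells (0.52 on the primary identifier, -1.22 summed) and HLA-E (0.07 without WNT3A 100 SOX2-negative replicate 2, -0.23 with it). Companions' fold changes that reversed were those of CANX (leave-one-out -0.186 to 0.246), CIITA (-0.168 to 0.52, and -0.243 with 3 doses averaged) and IRF1 (-0.061 to 0.636), and the cause was not tested. Leaving out 1 library gave 2638 to 6835 genes called between the gates (4085 with all), 250 to 2439 in SOX2-positive cells against control (1332) and 1749 to 6111 in SOX2-negative cells against control (3835). It gave 0 to 5739 for 1000 against 100 ng/ml in SOX2-negative cells (0) and 0 to 3795 for the difference of dose effects (0), the highest each time without WNT3A 100 SOX2-negative replicate 1. The lowest counts against control came without control replicate 2. In SOX2-positive cells against control, no filter gave 2158 genes and 5 members higher, only the compared groups 3243 and 7, and DESeq2 2059 and 5, against 2 members with all libraries and 0 to 5 on leaving out 1. Those gene totals count calls in either direction, while the member counts are of members called higher only. The share of all genes called higher under each of these settings is not given. Since the same values chose the members, nothing is read from the member counts. For dose, no filter gave 107 genes in SOX2-positive cells, 1551 in SOX2-negative cells and 308 for their difference. DESeq2 gave 5, 411 and 16, and keeping identifiers apart gave 1 in SOX2-positive cells and 1 for the difference. The replicate block and the fit of only the compared groups each gave 1 in SOX2-negative cells. Under the replicate block 4106 genes were called between the gates and HLA-B had 3.70, and CREB1 against control in SOX2-negative cells lost its call (adjusted p = 0.054 against 0.047, edgeR). Plain totals moved the median of all genes by -0.079 between the gates. TAP1 and PSMB8 rest on 32 counts or fewer per SOX2-negative library, which limits their precision.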
